A study of Mus musculus with 24 samples.

Results

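The genes described here are 43 members of the mitotic programme: mitotic cyclins and kinases, the 2 transcription factors Foxm1 and Mybl2, spindle checkpoint and kinetochore proteins, activators of the anaphase promoting complex, spindle motors, cytokinesis proteins, Top2a and Mki67. They were chosen by symbol, as every non-control probe of the array that carries the gene's name. All 43 were found, on 60 probes, among 29532 named features with a measurable level. Spleens of BALB.K mice were compared after total body irradiation with 0, 300, 400 or 800 cGy, and spleens of B10.BR mice after 0, 300, 500 or 900 cGy. The irradiated mice were examined at 24 hours, and the design text calls 800 and 900 cGy myeloablative for their strains. Each of the 8 groups had 3 one-colour arrays, and the RNA on each array was pooled from 3 mice and came from whole splenocytes, so p-values measure the spread between pools. Age and sex of the mice are not given in the sources used here.

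A dividing cell builds up these transcripts late in its cycle. Cdk1 bound to cyclins A and B drives entry into mitosis. Plk1 and Aurka, with motors such as Kif11, build the spindle, and the Ndc80 complex ties chromosomes to it. The checkpoint kinases Bub1 and Ttk hold the anaphase promoting complex back until all chromosomes are attached, after which Cdc20 and separase (Espl1) release the sister chromatids. In the adult mouse spleen, dividing cells include red cell precursors and stimulated lymphocytes, and cells damaged by radiation are known to stop in the cycle through p53 and Cdkn1a (p21).

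Late cell cycle genes are known for a shared promoter layout, in which a cell cycle homology region (CHR) lies near CCAAT boxes. RefSeq promoter windows of 300 bases (GRCm38.p6) were at hand for 37 of the 43 genes, in 39 windows; no window was at hand for Ccna2, Dlgap5, Foxm1, Kif20a, Spc24 and Tpx2. The CHR letters, TTTGAA or TTCGAA on either strand, occurred in 30 of the 39 windows (76.9%), against 19.2% of all 32851 windows in the table. CCAAT on either strand occurred in 74.4% of the members' windows and in 37.4% of all windows, and both motifs together in 66.7% and 7.52%. The E2F letters TTTCCCGC or TTTGGCGC, again on either strand, occurred in 1 member window (Kif15), which is 2.56% against 1.56%. The motifs were searched separately, so a base could count in more than 1 of them. A match of letters describes a sequence and is not a mapped binding site, and no test was made of these shares. The 200 bases before the start are shown for 4 genes fixed by name. These genes differ in how many CHR and CCAAT matches lie before the start. All are on GRCm38.p6, read 5′ to 3′ on the gene's strand. CHR and CCAAT letters (or ATTGG, which reads as the CCAAT box on the other strand) are in capitals. Ccnb2 (chr9:70421555-70421754, minus strand) held 1 CHR match and 3 CCAAT matches in these bases, and a further CHR match begins 4 bases after its start. Cdk1 (chr10:69352913-69353112, minus strand) held 2 of each. Cdc20 (chr4:118437344-118437543, minus strand) held 1 CHR match and 2 CCAAT matches, whereas Plk1 (chr7:122159235-122159434, plus strand) held 1 CCAAT match and no CHR match before the start; its CHR match, counted among the 30, begins 30 bases after the start.
Ccnb2: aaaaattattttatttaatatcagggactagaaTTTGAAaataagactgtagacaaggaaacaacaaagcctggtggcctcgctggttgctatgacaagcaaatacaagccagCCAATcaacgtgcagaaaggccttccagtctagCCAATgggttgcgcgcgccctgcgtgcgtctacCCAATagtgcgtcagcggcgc
Cdk1: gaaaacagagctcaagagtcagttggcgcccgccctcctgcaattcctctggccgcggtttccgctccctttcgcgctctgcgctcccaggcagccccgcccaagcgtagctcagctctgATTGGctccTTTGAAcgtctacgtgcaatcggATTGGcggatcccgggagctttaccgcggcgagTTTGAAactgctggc
Cdc20: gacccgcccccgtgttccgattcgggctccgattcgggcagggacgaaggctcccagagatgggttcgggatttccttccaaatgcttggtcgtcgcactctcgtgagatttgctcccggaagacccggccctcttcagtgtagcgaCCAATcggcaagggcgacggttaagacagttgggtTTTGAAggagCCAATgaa
Plk1: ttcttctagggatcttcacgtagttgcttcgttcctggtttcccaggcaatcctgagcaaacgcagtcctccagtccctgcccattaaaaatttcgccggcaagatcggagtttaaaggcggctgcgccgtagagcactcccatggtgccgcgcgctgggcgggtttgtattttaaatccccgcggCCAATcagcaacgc

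Levels below are log2 processed intensity minus the 75th percentile of the same array, so that a level of 0 is as bright as that percentile and each step of 1 is a doubling. A difference is on the same log2 scale, with its standard error (SE) from limma, and rose or fell is written of a gene only where the Benjamini-Hochberg adjusted p over all 29532 features was at most 0.05. Between 67.0% and 77.0% of the probes of an array were well above background, and no spot was saturated. All 43 members were well above background on all 3 arrays of the unirradiated groups. Arrays lay on 3 slides of 8. No slide held both groups of the comparisons of 400 or 800 cGy with 0 in BALB.K, of 900 cGy with 0 in B10.BR, or of the strains, so that slide and group cannot be told apart there. The Y-linked gene Ddx3y gave signal on all 12 B10.BR arrays and on 6 of the 12 BALB.K arrays (replicate 1 at 0, 300 and 400 cGy and all 3 at 800 cGy), so the BALB.K pools differ in this respect. The B and T cell markers, 14 and 13 genes, were well above background on all 24 arrays.

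The mitotic genes fell after irradiation in both strains at every dose, and at 300 cGy, the dose that the strains share, they fell further in BALB.K. In BALB.K all 43 genes fell at 300 cGy, against 26% of all features, with a median difference of -2.88 and a range of -3.96 to -1.93. All 43 also fell at 400 cGy, against 26% of all features (median -3.16), and at 800 cGy, against 29.1% (median -3.21). In B10.BR 42 of the 43 fell at 300 cGy, against 23% of all features, with a median of -1.24. At 500 cGy 42 fell, against 26.7% (median -1.51), and at 900 cGy 42 fell, against 28.4% (median -2.09). The gene that did not pass in B10.BR was Hmmr at each dose. With arrays scaled to spike-in probes 31 genes fell at 300 cGy in B10.BR (median -0.91), and Bub1b, Ttk, Top2a, Kif2c, Cdc20, Ndc80, Spc24, Mad2l1, Melk, Espl1 and Ckap2 did not pass there either. At 500 cGy Bub1b, Kif2c and Espl1 did not pass with this scaling (adjusted p = 0.284, 0.164 and 0.0623), nor did Bub1b at 900 cGy. No member rose in any of these 6 comparisons, whereas 20.7%, 25.6% and 29.3% of all features rose in BALB.K and 18.7%, 22.1% and 25.8% in B10.BR. The medians of all features lay between -0.12 and 0.08.

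Expressed as a share of the unirradiated level of the same strain, the median member stood at 13.6%, 11.2% and 10.8% in BALB.K after 300, 400 and 800 cGy. In B10.BR it stood at 42.2%, 35.2% and 23.5% after 300, 500 and 900 cGy. All 3 irradiated arrays lay below all 3 unirradiated arrays for each of the 43 genes in BALB.K and for the same 42 genes in B10.BR at every dose. The same held for 26.4%, 28.9% and 31.2% of all features with a value on all 6 arrays in BALB.K, by rising dose, and for 28.9%, 32.9% and 33.1% in B10.BR. In bulk RNA of a spleen, fewer dividing cells and less of these transcripts per cell cannot be told apart. The 3 comparisons of a strain share their unirradiated arrays. Markers of red cell precursors (18 of 19) and of B cells (13 of 14 in BALB.K, 14 in B10.BR) fell at 300 cGy as well, against 26% and 23% of all features. Their values are given with the cell type markers, and their part in the result was not tested. Among the BALB.K arrays with Ddx3y signal the median was -2.90 at 300 cGy, -3.07 at 400 cGy and -3.05 at 800 cGy; among those without it the medians were -2.88 and -3.17 at 300 and 400 cGy.

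**Figure D1:**
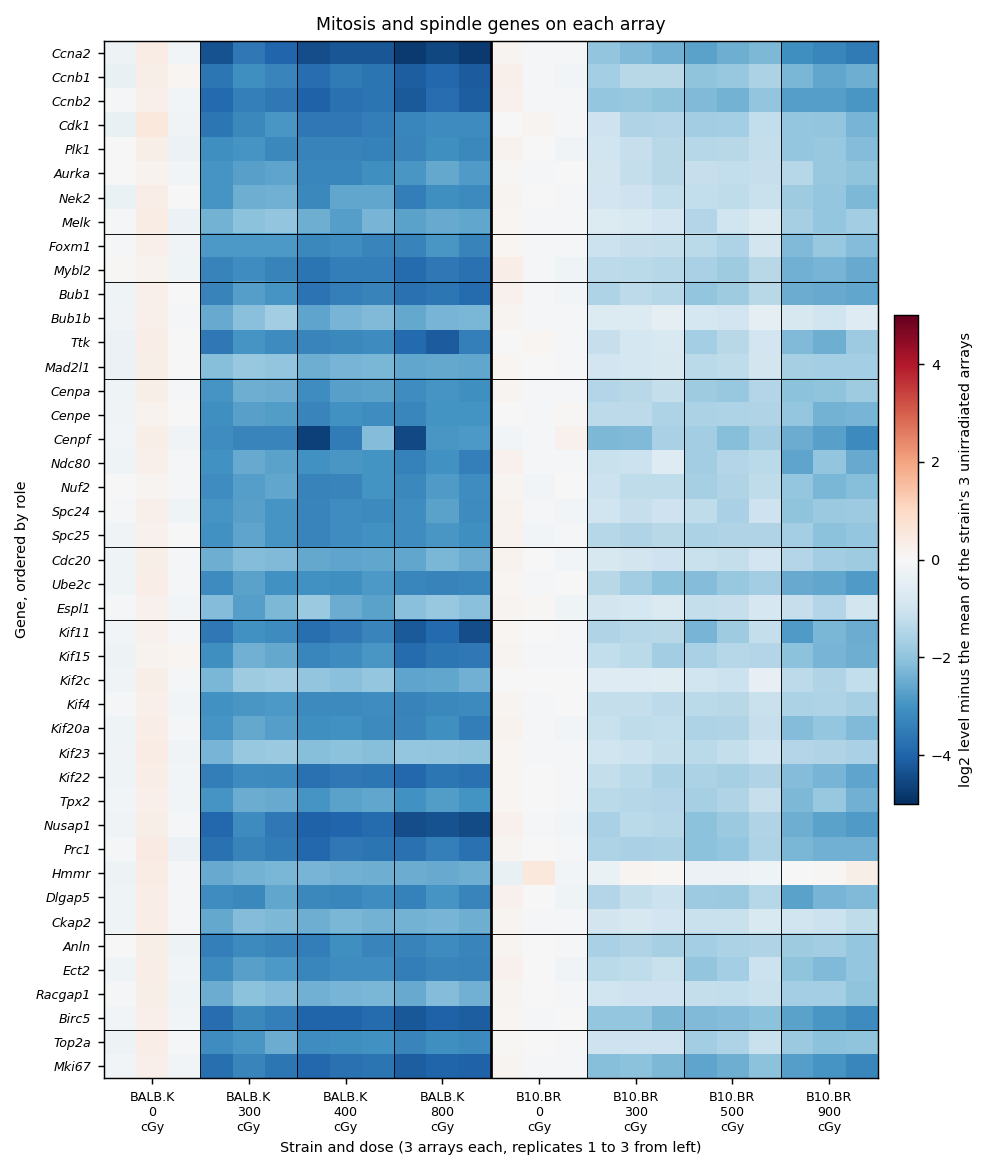
Log2 level of each of the 43 genes (rows, by role) on each of the 24 arrays (columns, by strain and dose), minus the mean of the 3 unirradiated arrays of the same strain; colour gives the difference. The medians of the BALB.K groups run from -2.88 to -3.21 and those of the B10.BR groups from -1.24 to -2.09, and the Hmmr row stays near 0 in B10.BR.

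Array by array, the median member was -3.08, -2.75 and -2.86 from the unirradiated mean on the 3 BALB.K arrays at 300 cGy. At 400 cGy it was -3.26, -3.11 and -3.09, and at 800 cGy -3.32, -3.05 and -3.20. In B10.BR the arrays at 300 cGy stood at -1.20, -1.28 and -1.32, those at 500 cGy at -1.63, -1.53 and -1.20, and those at 900 cGy at -2.01, -2.03 and -2.16. The unirradiated arrays lay between -0.19 and 0.29 in BALB.K and between -0.08 and 0.13 in B10.BR, so the irradiated arrays stood far below them. Among irradiated arrays, those at 400 and 800 cGy overlapped in BALB.K. In B10.BR the third array at 500 cGy, the only array of that group on the second slide, lay at the level of the arrays at 300 cGy, and the arrays at 900 cGy lay below all others.

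Among the cyclins and kinases, all 8 members fell at each dose in both strains. Ccna2, the cyclin of S phase and mitotic entry, fell most of all 43 genes in each of the 6 comparisons. Its level was 4.48, 5.09 and 4.61 on the unirradiated BALB.K arrays, 0.37, 1.15 and 0.77 at 300 cGy, 0.29, 0.45 and 0.45 at 400 cGy and -0.07, 0.17 and -0.04 at 800 cGy. On the B10.BR arrays it was 3.76, 3.51 and 3.54 at 0 cGy, 1.61, 1.41 and 1.22 at 300 cGy, 0.93, 1.15 and 1.35 at 500 cGy and 0.52, 0.33 and 0.07 at 900 cGy. Every irradiated array lay below every unirradiated array of its strain. At 300 cGy the change was -3.96 ± 0.19 in BALB.K, a 15.6-fold fall (adjusted p = 8.67e-12), and -2.19 ± 0.19 in B10.BR, a 4.56-fold fall (adjusted p = 4.61e-08).

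Ccnb2, a B-type cyclin whose promoter holds 3 CCAAT matches above, read 5.09, 5.44 and 5.08 without irradiation and 1.30, 1.79 and 1.63 at 300 cGy in BALB.K. In B10.BR it read 3.86, 3.57 and 3.57 without irradiation and 1.74, 1.78 and 1.64 after 300 cGy. The strains were apart without irradiation and overlapped at 300 cGy. The change was -3.63 ± 0.15 in BALB.K and -1.95 ± 0.15 in B10.BR. Ccnb1, the other B-type cyclin, changed by -3.32 and -1.48 at this dose. Plk1, the polo-like kinase that acts at centrosomes and kinetochores, read 3.64, 3.96 and 3.37 in unirradiated BALB.K and 0.60, 0.70 and 0.43 at 300 cGy. In B10.BR it read 2.64, 2.47 and 2.30 without irradiation and 1.47, 1.32 and 1.09 after 300 cGy. Its groups did not overlap within a strain, and it fell by 8.48-fold in BALB.K and 2.26-fold in B10.BR at 300 cGy (adjusted p = 5.8e-12 and 2.03e-06). Aurka, the spindle pole kinase, changed by -2.77 ± 0.15 and -1.17 ± 0.15, Nek2, a centrosome kinase, by -2.59 and -1.07, and Melk, a kinase of dividing cells, by -2.12 and -0.80, the smallest fall of the 8 in both strains.

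Cdk1, the kinase that the mitotic cyclins activate, was read on 3 probes, of which 1 did not pass the filter on dim signals. On the brightest probe its level was 0.68, 1.58 and 0.84 in unirradiated BALB.K and -2.57, -2.17 and -1.89 at 300 cGy. In B10.BR it was 0.21, 0.35 and 0.13 without irradiation and -0.82, -1.29 and -1.23 after it. The groups did not overlap, and the gene fell by 9.46-fold in BALB.K and 2.54-fold in B10.BR. The second Cdk1 probe, well above background on 22 of the 24 arrays, gave -0.32 ± 0.55 in BALB.K (adjusted p = 0.678) and -1.29 ± 0.55 in B10.BR (adjusted p = 0.0753) at 300 cGy, so the size of the Cdk1 fall depends on the probe. The second Foxm1 probe, well above background on 19 arrays, gave -1.87 and -0.95. For the 10 other genes with further measured probes, each of those probes was lower than without irradiation at all 6 doses.

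**Figure D2:**
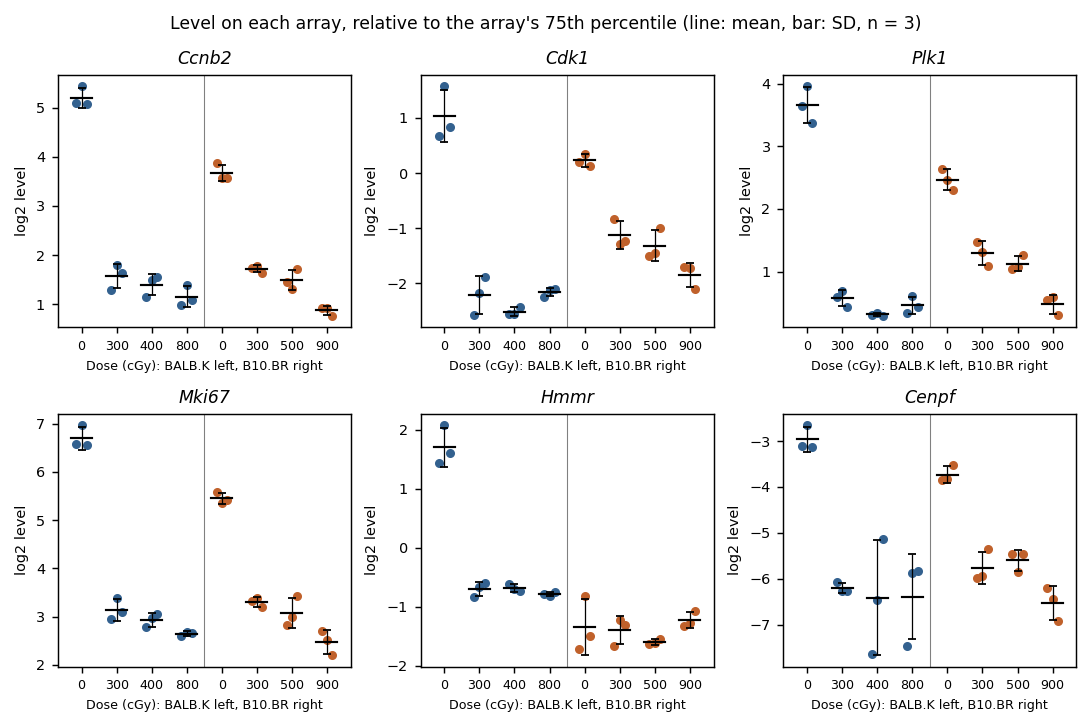
Log2 level relative to the array's 75th percentile (vertical axis) in each dose group (cGy) for Ccnb2, Cdk1, Plk1, Mki67, Hmmr and Cenpf. Points are single arrays, short horizontal lines are group means and bars are the SD of 3 arrays. The BALB.K points start higher and drop further than the B10.BR points for the first 4 genes, and Hmmr in B10.BR stays between -1.72 and -0.81.

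Foxm1 and Mybl2 (B-Myb), the transcription factors that switch on many late cell cycle genes, both fell. Mybl2 read 3.93, 4.05 and 3.67 in unirradiated BALB.K and 0.54, 0.77 and 0.56 at 300 cGy. In B10.BR it went from 2.40, 1.97 and 1.84 to 0.78, 0.73 and 0.64. At 300 cGy the strains were close, although they had been far apart before. The change was -3.26 ± 0.14 in BALB.K and -1.35 ± 0.14 in B10.BR. Foxm1 went from 0.84, 1.15 and 0.72 to -1.97, -1.96 and -1.96 in BALB.K, and from -0.49, -0.62 and -0.62 to -1.65, -1.74 and -1.77 in B10.BR. No irradiated array reached an unirradiated one, and its change was -2.87 ± 0.14 (adjusted p = 2.03e-11) and -1.14 ± 0.14 (adjusted p = 4.2e-06).

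The 4 checkpoint genes, which delay anaphase until chromosomes are attached, fell in every comparison, with medians of -2.56 in BALB.K and -0.91 in B10.BR at 300 cGy. Ttk (Mps1), the kinase at the head of the checkpoint, read -2.001, -1.37 and -1.70 in unirradiated BALB.K and -5.25, -4.62 and -4.82 at 300 cGy. In B10.BR it read -3.71, -3.61 and -3.79 without irradiation and -4.83, -4.56 and -4.48 after 300 cGy. The groups of each strain did not overlap, and Ttk fell by 9.22-fold in BALB.K and by 1.9-fold in B10.BR. Bub1, a checkpoint kinase at the kinetochore, changed by -3.02 and -1.43, and Mad2l1 (Mad2), the inhibitor of Cdc20, by -2.003 and -0.89. Bub1b (BubR1), which binds the same inhibitory complex, read 0.39, 0.17 and 0.16 in unirradiated B10.BR and -0.43, -0.46 and -0.20 at 300 cGy. It read -0.64, -0.71 and -0.20 at 500 cGy and -0.54, -0.75 and -0.42 at 900 cGy. Its irradiated groups overlapped one another and lay below the unirradiated arrays, with changes of -0.60, -0.76 and -0.81, against -2.11, -2.38 and -2.39 in BALB.K. Next to Hmmr its B10.BR values were nearest 0 at every dose. Bub1b did not pass in B10.BR with spike-in scaling (-0.27, -0.43 and -0.42, adjusted p = 0.565, 0.284 and 0.25), nor with the exocrine pancreas level as a covariate at 300 and 900 cGy, nor at 300 cGy without unirradiated replicate 1 (adjusted p = 0.0517).

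All 7 kinetochore and centromere genes fell at every dose, with medians of -2.86 in BALB.K and -1.35 in B10.BR at 300 cGy. The 4 subunits of the Ndc80 complex, which grips microtubules, moved within a narrow range in BALB.K: Ndc80 changed by -2.74, Nuf2 by -2.83, Spc24 by -2.88 and Spc25 by -2.88. In B10.BR the same subunits changed by -0.94, -1.22, -1.06 and -1.44. Cenpa, the histone H3 variant that marks centromeres, changed by -2.62 and -1.35, and Cenpe, a kinesin of the kinetochore, by -2.86 and -1.39.

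Cenpf, an outer kinetochore protein, was the only member that was not well above background on every array of some groups. Its level was -3.11, -2.66 and -3.12 in unirradiated BALB.K and -6.07, -6.27 and -6.27 at 300 cGy (1 of 3 arrays well above background). It was -7.64, -6.46 and -5.14 at 400 cGy (1 of 3) and -7.47, -5.87 and -5.84 at 800 cGy (2 of 3). In B10.BR it was -3.86, -3.83 and -3.52 at 0 cGy, -5.98, -5.95 and -5.36 at 300 cGy (2 of 3 arrays well above background), -5.47, -5.85 and -5.47 at 500 cGy and -6.21, -6.43 and -6.93 at 900 cGy. The irradiated arrays were lower than the unirradiated ones throughout, and the BALB.K arrays at 400 and 800 cGy were far apart from one another. With the exocrine pancreas level as a covariate Cenpf did not pass at 300 cGy in B10.BR (-1.48, adjusted p = 0.0806). At 900 cGy in B10.BR it was not well above background on any array, so the size of its fall there is uncertain. The measured change was -2.79, with an SE of 0.46 (adjusted p = 4.07e-05). A floor was also set per array, the lowest signal among probes well above background. With Cenpf signals under the floor raised to it, the fall was 6.79-fold. This value leaves out the SE, so it is not a lower limit on the fall.

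The 3 genes of anaphase onset fell at each dose. Cdc20, the activator of the anaphase promoting complex, read 3.55, 4.05 and 3.68 in unirradiated BALB.K and 1.32, 1.58 and 1.55 at 300 cGy. In B10.BR it read 3.15, 2.95 and 2.87 without irradiation and 2.20, 2.08 and 1.97 after 300 cGy. The groups of each strain did not overlap, and the changes were -2.28 ± 0.13 and -0.91 ± 0.13. Ube2c, the ubiquitin-conjugating enzyme that works with this complex, changed by -2.94 in BALB.K and -1.72 in B10.BR. Espl1, the separase that cuts cohesin, changed by -2.39 and -0.84.

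Of the 13 motors and spindle proteins, all fell in BALB.K and 12 fell in B10.BR at each dose, with medians of -2.74 and -1.24 at 300 cGy. Nusap1, which bundles spindle microtubules, read 3.47, 3.94 and 3.57 in unirradiated BALB.K, -0.27, 0.51 and 0.10 at 300 cGy and -0.78, -0.70 and -0.82 at 800 cGy. In B10.BR it read 2.26, 1.95 and 1.92 without irradiation, 0.41, 0.71 and 0.63 at 300 cGy and -0.41, -0.64 and -0.79 at 900 cGy. It was among the strongest falls, -3.55 ± 0.18 in BALB.K and -1.46 ± 0.18 in B10.BR at 300 cGy. Prc1, which bundles the central spindle, changed by -3.52 ± 0.16 and -1.59 ± 0.16, and Kif11 (Eg5), which pushes the poles apart, by -3.25 ± 0.23 and -1.43 ± 0.23. The chromokinesins Kif22 and Kif4 changed by -3.25 and -2.94 in BALB.K and by -1.38 and -1.23 in B10.BR. Kif15, which can back up Kif11, changed by -2.69 and -1.44, and Kif20a, a kinesin of the central spindle, by -2.74 and -1.22. Tpx2, the activator of Aurka, changed by -2.65 and -1.42, Dlgap5, which stabilises kinetochore fibres, by -2.98 and -1.24, and Ckap2, a spindle microtubule protein, by -2.32 and -0.89. The smallest BALB.K fall at 300 cGy was that of Kif2c, a kinesin that shortens microtubules, at -1.93 ± 0.16, against -0.63 ± 0.16 in B10.BR. Kif23, the motor of centralspindlin, changed by -2.03 and -1.08.

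Hmmr, a hyaluronan receptor that also acts in spindle assembly, stood apart in B10.BR. In BALB.K it read 1.44, 2.08 and 1.60 without irradiation and -0.83, -0.66 and -0.59 at 300 cGy, -0.61, -0.69 and -0.74 at 400 cGy and -0.78, -0.82 and -0.75 at 800 cGy, with no overlap between unirradiated and irradiated arrays. In B10.BR it read -1.72, -0.81 and -1.50 without irradiation and -1.66, -1.21 and -1.30 at 300 cGy, -1.63, -1.62 and -1.54 at 500 cGy and -1.33, -1.28 and -1.07 at 900 cGy, and these arrays overlapped. The unirradiated B10.BR arrays already lay below all irradiated BALB.K arrays but for 1 of them, which lay within their range. Its change was -2.40 ± 0.19 in BALB.K (adjusted p = 6.43e-09) and -0.05 ± 0.19 in B10.BR (adjusted p = 0.866) at 300 cGy, then -0.26 ± 0.19 (adjusted p = 0.281) and 0.12 ± 0.19 (adjusted p = 0.626). Hmmr rests on 1 probe. The sign of its B10.BR change depended on single arrays: without unirradiated replicate 2 it was 0.21 at 300 cGy and 0.011 at 500 cGy, without replicate 1 of the 300 cGy group it was 0.084, and without unirradiated replicate 1 it was -0.072 at 900 cGy. Scaling to spike-in probes gave 0.28 at 300 cGy and 0.068 at 500 cGy.

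The 4 cytokinesis genes fell throughout, with medians of -3.10 in BALB.K and -1.42 in B10.BR at 300 cGy. Birc5 (survivin), of the chromosomal passenger complex, read 5.53, 5.95 and 5.56 in unirradiated BALB.K and 1.87, 2.44 and 2.27 at 300 cGy. In B10.BR it went from 5.05, 4.87 and 4.92 to 3.02, 3.01 and 2.68. The irradiated arrays of both strains were well below their controls, and Birc5 fell by 11.2-fold and 4.12-fold. Anln, a scaffold of the contractile ring, changed by -3.30 and -1.59, Ect2, which activates RhoA there, by -2.91 and -1.25, and Racgap1, the partner of Kif23 in centralspindlin, by -2.24 and -1.03.

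Mki67, the common marker of cycling cells, read 6.57, 6.97 and 6.55 in unirradiated BALB.K and 2.94, 3.39 and 3.10 at 300 cGy, 2.78, 2.96 and 3.06 at 400 cGy and 2.59, 2.68 and 2.67 at 800 cGy. In B10.BR it read 5.59, 5.36 and 5.41 at first, then 3.33, 3.39 and 3.19 at 300 cGy, 2.82, 2.99 and 3.42 at 500 cGy and 2.70, 2.51 and 2.20 at 900 cGy. The strains did not overlap before irradiation and overlapped at 300 cGy, where Mki67 had fallen by 11.7-fold in BALB.K and 4.43-fold in B10.BR (adjusted p = 5.8e-12 and 9.3e-09). Top2a, the topoisomerase that untangles sister chromatids, changed by -2.84 in BALB.K and -1.05 in B10.BR.

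**Figure D3:**
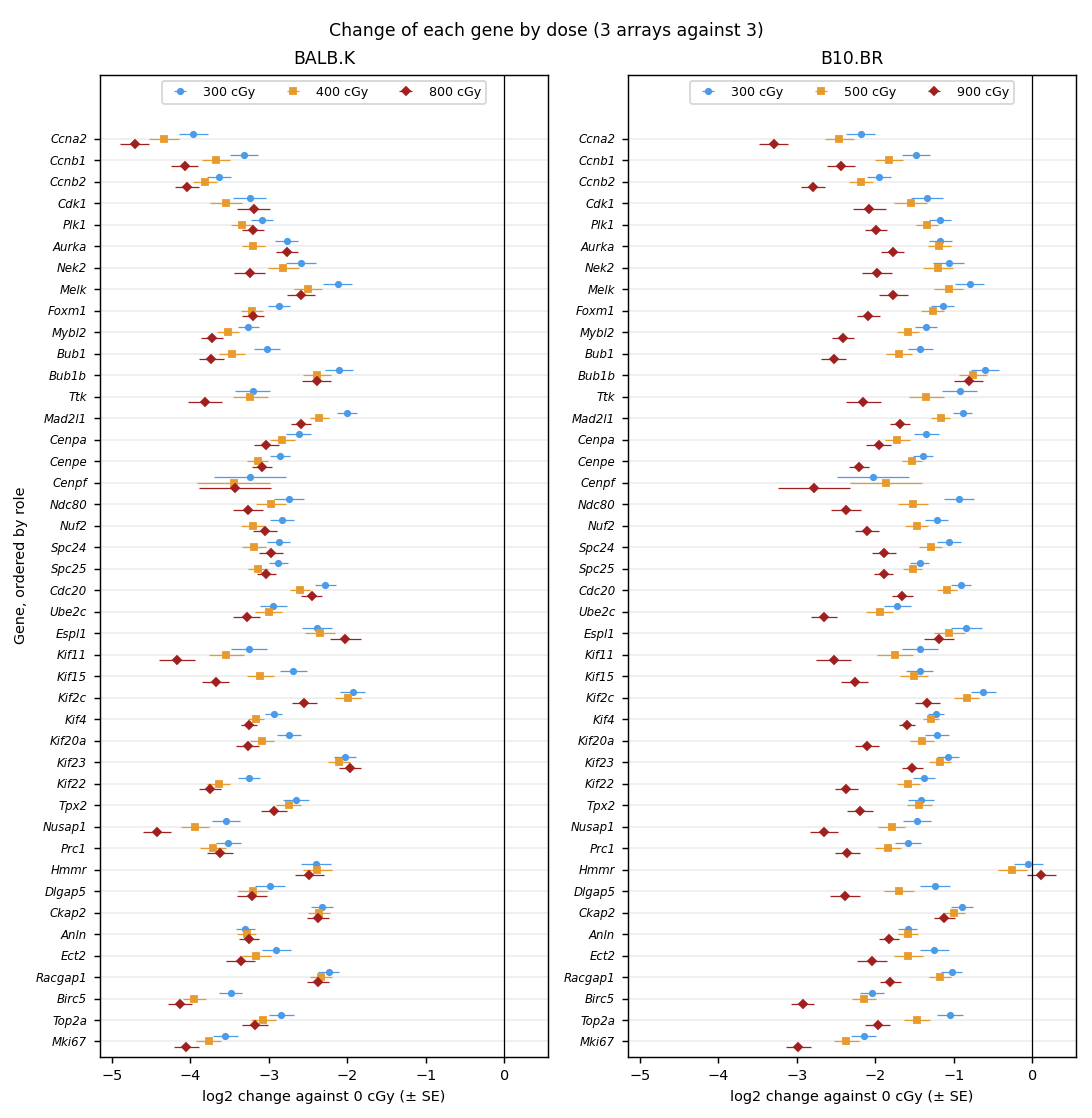
Log2 difference from the unirradiated group (horizontal axis, bars are the SE from limma) for each of the 43 genes (rows, by role) at the 3 doses, in 1 panel per strain. All BALB.K points lie left of -1.9 and the B10.BR points lie nearer 0, further left at 900 cGy than at 300 cGy except for Hmmr; Cenpf at 900 cGy is drawn at its measured value, which is not well above background.

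The dose steps asked whether more radiation lowered the genes further. From 300 to 400 cGy in BALB.K no member passed, against 1.61% of all features that fell and 3.17% that rose. The median moved by -0.26. For 11 members all 3 arrays at 400 cGy lay below all 3 at 300 cGy, against 9.7% of all features. For none did they lie above, against 18.5%. From 400 to 800 cGy in BALB.K the median moved by -0.11, and 2 members fell, against 9.96% of all features. Those were Kif2c (-0.56 ± 0.16, adjusted p = 0.0213) and Kif15 (-0.57 ± 0.17, adjusted p = 0.0289). Aurka rose, against 8.66% of all features, by 0.43 ± 0.15 (adjusted p = 0.046), from -0.23, -0.20 and 0.00 to 0.15, 0.50 and 0.22, with no overlap. Both BALB.K steps rested on few arrays. The count from 300 to 400 cGy was 4 without replicate 1 of the 300 cGy group, 20 with median scaling and 6 with slide as a block, all lower. On the third slide, with 3 arrays at 400 cGy and 2 at 300 cGy, 42 of the 43 were lower (median -0.37). Signs on that slide were not counted over all features. The count from 400 to 800 cGy was 1 without replicate 2 and 0 without replicate 3 of the 400 cGy group, 1 without replicate 1 and 0 without replicate 2 of the 800 cGy group, and 0 with the exocrine pancreas level of the array as a covariate. With replicate number as a block 4 fell and none rose, so the rise of Aurka did not pass.

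In B10.BR the median moved by -0.21 from 300 to 500 cGy and no member passed, against 0.928% of all features that fell and 0.67% that rose. In that step all 3 arrays at 500 cGy lay below all 3 at 300 cGy for 4 members, against 8.91% of all features. They lay above for none, against 10.7%. From 500 to 900 cGy the median moved by -0.63, and 26 of the 43 fell, against 3.25% of all features, while none rose, against 1.34%. The largest of these falls were Nusap1 (-0.86 ± 0.18, adjusted p = 0.00841) and Ndc80 (-0.86 ± 0.19, adjusted p = 0.0126), followed by Ccna2 (-0.83), Bub1 (-0.83) and the transcription factors Mybl2 (-0.82) and Foxm1 (-0.82). Cenpf (-0.92 ± 0.46, adjusted p = 0.29) did not pass. With the floor described for it above it was 1.87-fold lower, which is not a lower limit. The other 16 that did not pass were Anln, Bub1b, Ccnb1, Cdk1, Cenpa, Ckap2, Ect2, Espl1, Hmmr, Kif11, Kif23, Kif2c, Kif4, Prc1, Spc25 and Top2a. The count rested on few arrays: it was 17 without replicate 2 and 8 without replicate 3 of the 500 cGy group, 17 without replicate 2 and 7 without replicate 3 of the 900 cGy group, 4 with the exocrine pancreas level as a covariate, and 0 when only the compared arrays were fitted or when arrays were scaled to spike-in probes. On the second slide, which held 3 arrays at 900 cGy and 1 at 500 cGy, the median difference was -0.86 and 42 of the 43 genes were lower. Signs on that slide were not counted over all features.

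By group means alone, 40 of the 43 genes in B10.BR and 28 in BALB.K stood lower at each successive dose. The means at 400 cGy were below those at 300 cGy for 40 genes in BALB.K, and those at 800 cGy below those at 400 cGy for 29. These orders were not counted over all features. The doses above 300 cGy differ between the strains, so their changes are set side by side only: -3.16 at 400 cGy and -3.21 at 800 cGy in BALB.K, -1.51 at 500 cGy and -2.09 at 900 cGy in B10.BR.

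Without irradiation the strains already differed. In B10.BR 42 of the 43 genes were lower than in BALB.K, against 30.7% of all features, with a median difference of -1.04, and for all 43 the B10.BR arrays lay below the BALB.K arrays, as they did for 32.2% of all features. Hmmr differed most (-3.05 ± 0.19, adjusted p = 3.41e-10), and Ttk (-2.01 ± 0.22), Mybl2 (-1.82 ± 0.14), Nusap1 (-1.62 ± 0.18), Ccnb2 (-1.53) and Ccnb1 (-1.53) followed. Espl1 (-0.52), Kif23 (-0.63) and Kif20a (-0.69) differed least among those that passed. Cenpf (-0.77, adjusted p = 0.165) did not pass. With slide as a block 17 genes passed and the median was -0.74. Against the 1 unirradiated BALB.K array with Ddx3y signal the median was -0.88, and against the 2 without it -1.14.

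After 300 cGy the order turned for many genes. In B10.BR 20 of the 43 were higher than in BALB.K, against 15.2% of all features, and 1, Hmmr, was lower (-0.70 ± 0.19, adjusted p = 0.00728), against 18.7%. The median difference was 0.43. Cdk1 differed most (1.09 ± 0.21, adjusted p = 0.000566), then Top2a (1.04 ± 0.16), Espl1 (1.03 ± 0.19), Dlgap5 (0.88), Kif20a (0.84) and Prc1 (0.84). Top2a read -0.87, -0.65 and -0.24 in BALB.K and 0.45, 0.46 and 0.45 in B10.BR, with no overlap. Racgap1 (0.03), Mybl2 (0.09), Ccnb2 (0.15) and Mki67 (0.16) were among the 22 that did not pass. In all, 20 genes were lower in B10.BR before and higher after 300 cGy. Group means were higher in B10.BR for 42 of the 43 genes. Neither count was taken over all features. With arrays scaled to spike-in probes the difference lay above 0 for 28 genes and below 0 for 15, with a median of 0.15. Of these 3 passed, 2 higher and 1 lower in B10.BR. With slide as a block 22 passed as higher. Against the BALB.K array with Ddx3y signal the median was 0.73, and against those without it 0.27.

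**Figure D4:**
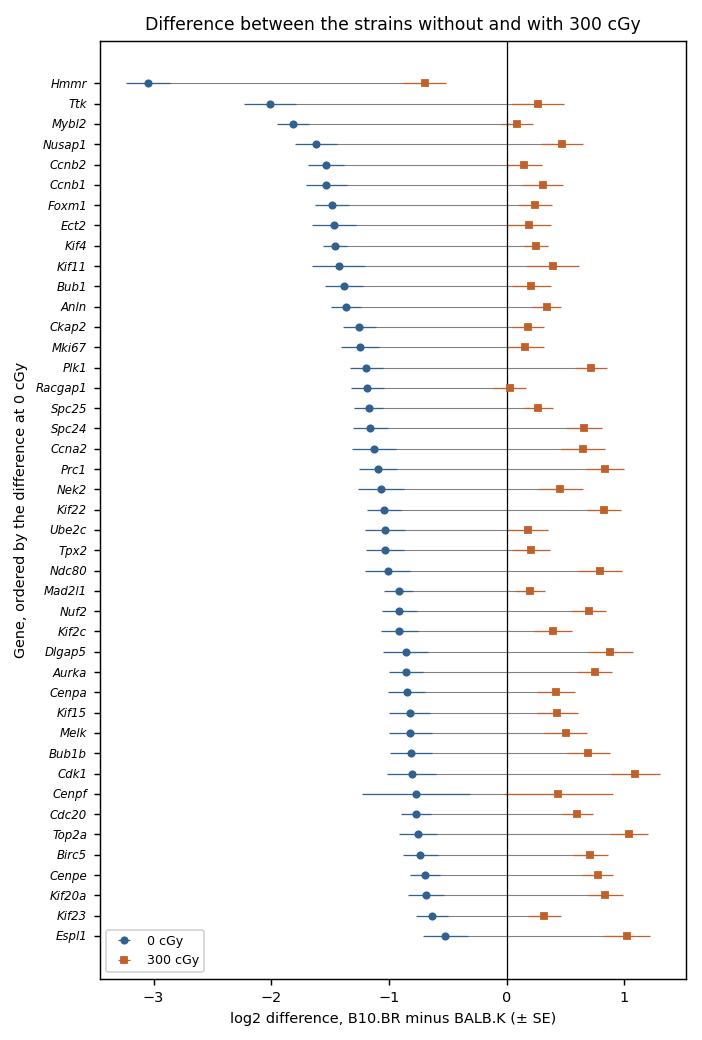
Log2 difference of B10.BR minus BALB.K (horizontal axis, bars are the SE from limma) for each of the 43 genes (rows, ordered by the difference at 0 cGy) at 0 cGy and at 300 cGy. At 0 cGy all points lie below 0 (median -1.04); at 300 cGy 42 of 43 lie above 0 (median 0.43; 28 with spike-in scaling), with Hmmr at -0.70.

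Whether 300 cGy moved the genes by unequal amounts in the 2 strains was tested directly. For 42 of the 43 genes the change was nearer 0 in B10.BR, against 6.03% of all features whose change was higher in B10.BR and 4.86% whose change was lower. The median of the difference of changes was 1.60. One of the 42, Hmmr, did not fall in B10.BR, where its unirradiated level was already 8.25-fold lower than in BALB.K on its 1 probe. The largest were Hmmr (2.35 ± 0.26, adjusted p = 2.87e-05), Ttk (2.28 ± 0.31, adjusted p = 0.000181) and Nusap1 (2.08 ± 0.25, adjusted p = 6.32e-05). Prc1 (1.93 ± 0.23), Plk1 (1.91 ± 0.20), Mybl2 (1.91 ± 0.19) and Cdk1 (1.90 ± 0.30) came next. Among the genes that passed, Kif23 (0.96), Mad2l1 (1.12) and Racgap1 (1.21) had the smallest values, and Cenpf (1.21, adjusted p = 0.253) did not pass. The count was 42 with slide or replicate number as a block and without any 1 array. For Cdk1 the result rests on the probe: the mean of its probes gave 0.46 (adjusted p = 0.58), and the second probe -0.97 ± 0.78 (adjusted p = 0.471). The second probes of Foxm1 (0.91, adjusted p = 0.193) and Tpx2 (0.82, adjusted p = 0.107) did not pass either. When only the compared arrays were fitted, Kif23 (adjusted p = 0.0686) and Ube2c (adjusted p = 0.0531) did not pass, nor did Ube2c with only the BALB.K arrays that gave Y-linked signal (adjusted p = 0.0545). The difference of changes equals the strain difference at 300 cGy minus that at 0 cGy, and all 3 arrays at 300 cGy share a slide with their controls in B10.BR, but 1 of 3 does in BALB.K. On the slide that BALB.K shares (1 array at 300 cGy, 3 at 0 cGy) the median change was -3.08, and on the B10.BR slide -1.24.

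Genes that fell more in BALB.K also fell more in B10.BR. Across the 43 genes Pearson's r between the changes at 300 cGy was 0.79 and Spearman's rho 0.81, as a description over genes that share their arrays.

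**Figure D5:**
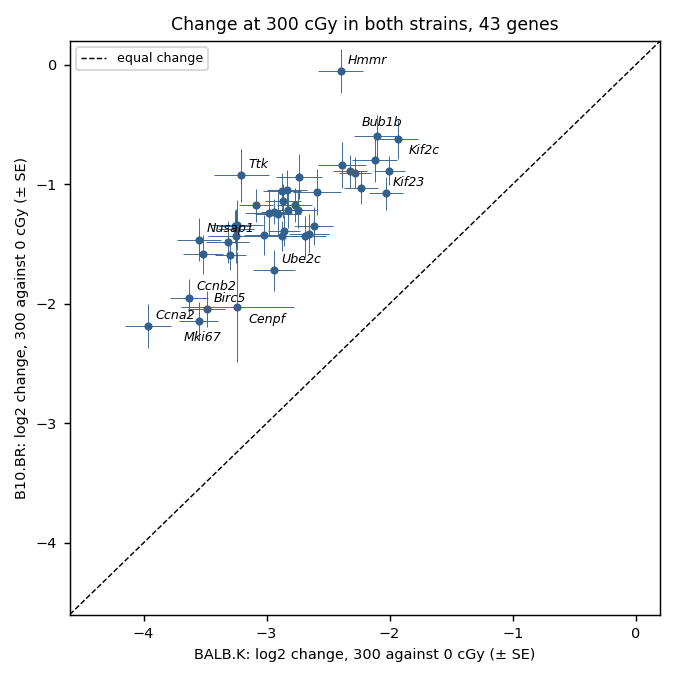
Log2 change at 300 cGy in B10.BR (vertical axis) against that in BALB.K (horizontal axis) for the 43 genes, with the line of equal change. All points lie above the line, so the value is nearer 0 in B10.BR for each gene, and Hmmr lies near 0 on the B10.BR axis.

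Other genes of cell division were followed through lists drawn up by function. Their counts at 300 cGy stand against 26% of all features that fell and 20.7% that rose in BALB.K, and 23% and 18.7% in B10.BR. Of 55 further measured genes of mitosis, 50 fell and none rose in BALB.K at 300 cGy (median -2.47), and 44 fell and 1 rose in B10.BR (median -1.06). The largest falls included Esco2, which builds sister chromatid cohesion (-3.96 ± 0.18 and -2.10 ± 0.18), and Knl1, the kinetochore scaffold (-3.69 ± 0.16 and -1.64 ± 0.16). Gtse1, a microtubule-binding protein of G2 phase, changed by -0.99 ± 0.18 in BALB.K, a fall, and 0.52 ± 0.18 in B10.BR, a rise (adjusted p = 0.0285). Without irradiation 42 of the 55 were lower in B10.BR and none higher, against 30.7% and 22.6% of all features. The change at 300 cGy was higher in B10.BR for 46 and lower for none, against 6.03% and 4.86% of all features. Of 25 genes of DNA replication, all fell in BALB.K (median -2.08) and 23 in B10.BR (median -0.88), among them Cdc6, which loads the replicative helicase (-3.83 in BALB.K), and Rrm2, of ribonucleotide reductase (-3.30 and -1.91).

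Lists of cell cycle regulators had smaller medians. At 300 cGy their counts stand against 26% of all features that fell and 20.7% that rose in BALB.K, and 23% and 18.7% in B10.BR. Of 14 core genes of the anaphase promoting complex and its partners 7 fell in each strain at 300 cGy, with medians of -0.24 and -0.22. The largest falls were those of Fzr1, an activator of the complex (-1.74 and -0.97), and Ube2s (-1.66 and -0.91). Of 12 genes of the DREAM and MuvB complexes, which bind CHR and E2F promoters, 9 fell and 2 rose in BALB.K (median -0.79), and 6 fell and 1 rose in B10.BR (median -0.31). Tfdp2 changed by -2.28 and -1.33 and E2f4 by -1.66 and -0.72, falls in both strains. Of 16 genes of G2 arrest 6 fell and 6 rose in BALB.K, and 6 fell and 7 rose in B10.BR. Cdkn1a (p21), the inhibitor of cyclin-dependent kinases, rose by 3.92 ± 0.10 in BALB.K and 3.82 ± 0.10 in B10.BR at 300 cGy, and the difference between these rises was -0.10 ± 0.14 (adjusted p = 0.7). Wee1, which holds Cdk1 inactive, changed by -1.09 in BALB.K, a fall, and by 0.13 in B10.BR (adjusted p = 0.617), with a difference of changes of 1.22 ± 0.25 (adjusted p = 0.00402).

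Markers of several cell types moved with the mitotic genes. Of 19 red cell precursor markers 18 fell at 300 cGy in each strain, with medians of -4.21 in BALB.K and -4.67 in B10.BR. Of all features 26% and 23% fell. Their summed linear level, each marker relative to the array's 75th percentile, ran from 654 to 836 on unirradiated BALB.K arrays against 49.6 to 91.1 after 300 cGy, 59.5 to 65 after 400 cGy and 52.1 to 56.8 after 800 cGy. In B10.BR it ran from 234 to 306 without irradiation, against 20.5 to 37 after 300 cGy, 18.7 to 24.4 after 500 cGy and 16.9 to 18.9 after 900 cGy. Rhd and Rhag were not well above background on any array at 500 or 900 cGy in B10.BR, nor were Epb42 and Add2 at 900 cGy. Without irradiation 18 of the 19 were lower in B10.BR (median -1.33), against 30.7% of all features, which was the direction of the mitotic genes. At 300 cGy 14 were lower and 1 higher (median -1.67), against 18.7% and 15.2%, which was not the direction of the mitotic genes. The change at 300 cGy was higher in B10.BR for 4 of the 19 and lower for 2 (median -0.09), against 6.03% and 4.86% of all features. Their part in the result was not tested.

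Of 14 B cell markers 13 fell in BALB.K (median -0.93) and 14 in B10.BR (median -1.07) at 300 cGy, and of 13 T cell markers 11 and 12 fell (medians -0.39 and -0.93). Of all features 26% fell and 20.7% rose in BALB.K at this dose, and 23% and 18.7% in B10.BR. The summed B cell markers ran from 324 to 330 in unirradiated BALB.K, 189 to 228 at 300 cGy and 47.7 to 48.4 at 800 cGy. In B10.BR they ran from 405 to 447, 208 to 219 and, at 900 cGy, 68.8 to 75.6. Among 7 germinal center B cell markers 3 fell and 2 rose in BALB.K, and 2 fell and 2 rose in B10.BR. All 12 macrophage markers rose in both strains (medians 1.32 and 1.42), with summed levels that went from between 233 and 280 to between 474 and 509 in BALB.K and from between 248 and 267 to between 555 and 619 in B10.BR. Of 10 markers of neutrophils and their precursors 2 rose in BALB.K and 8 in B10.BR at 300 cGy and none fell. At 900 cGy in B10.BR 5 fell and none rose (median -0.67), against 28.4% and 25.8% of all features. The 18 digestive enzyme genes of the exocrine pancreas were uneven between arrays of a group, with sums from 53 to 1800 in BALB.K and 100 to 1430 in B10.BR at 300 cGy. In B10.BR 18 of 18 rose at 300 and at 900 cGy and none at 500 cGy, against 18.7%, 25.8% and 22.1% of all features. In BALB.K 2 rose at 800 cGy and none at 300 or 400 cGy, against 29.3%, 20.7% and 25.6%. The exocrine pancreas level served as a covariate in an alternative fit. With it 4 of the 43 members fell from 500 to 900 cGy in B10.BR, against 26 without it, while the counts against 0 cGy stayed within 1.5 times those reported. The part of the other markers in the results was not tested.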

How the data were processed

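Arrays were read from the scanner output, which per the file headers gives each spot's intensity after background subtraction by Agilent Feature Extraction (version 10.5.1.1). The authors' deposited matrix, log2 values centred on each probe, served only as an alternative within a strain. The processed signal was put on a log2 scale and the array's 75th percentile was subtracted. Outlier spots (0.2%) were dropped, and a probe entered if it was well above background throughout at least 1 group of 3 arrays (42319 of 55681, and 58 of the members' 60). Where a gene had several probes the one with the highest mean was used, giving 29532 features. RefSeq (GRCm38.p6) named 26413 probes by accession, 3859 by symbol and 735 by synonym, and 24674 kept the name in the file.

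Group means were estimated in R 4.3.3 by limma 3.58.1 (files read by data.table version 1.17.8), using all 24 arrays. P-values are two-sided, and were adjusted over all features of each of 13 comparisons (Benjamini-Hochberg, 0.05). The number of arrays limits the precision, and the median SE of a member's change was 0.16. Alternatives were other scalings, background corrections, filters and probe rules, slide or replicate number as a block, the exocrine pancreas level as a covariate, and arrays left out. Arrays with the same replicate number deviated together (r above 0.1 in every pair) in 2 comparisons, 900 against 500 cGy in B10.BR and the strains at 300 cGy. All 43 members are named. The members, lists and tests were chosen with earlier results of these data known.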

Additional observations from a re-analysis of the deposited data

Results flagged for a closer look

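The change at 300 cGy differed between the strains, by a test of the difference itself in limma, for 42 of the 43 genes, all with the smaller fall in B10.BR. The differences of the log2 changes were 2.35 for Hmmr, 2.28 for Ttk, 2.08 for Nusap1, 1.93 for Prc1, 1.91 for Plk1 and 1.91 for Mybl2, the 6 largest. Groups of 3 arrays are too small for a check for outlying arrays.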

How the results depend on the processing

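All counts of members called in the 6 comparisons with unirradiated spleen stayed within 1.5 times the reported count under every alternative run. Single members were rerun for these 6 comparisons and the difference of changes, not for dose steps or the direct strain comparisons. Of their 6803 alternative values, 6774 kept their direction and side of the threshold, 23 lost the call and 6 turned sign. All 6 were Hmmr in B10.BR. With spike-in scaling its change was 0.28 at 300 cGy and 0.068 at 500 cGy. With 1 array left out it ran from -0.24 to 0.21 at 300 cGy, from -0.44 to 0.011 at 500 cGy and from -0.072 to 0.38 at 900 cGy. The cause was not tested.

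Counts of dose steps and strain comparisons moved more. From 300 to 400 cGy in BALB.K (0 reported) the count was 20 with median scaling, 6 with slide as a block and 1 in arrays without Y-linked signal, and 0 to 4 with 1 array left out. From 400 to 800 cGy in BALB.K (3 reported) it was 5 with quantile normalization or with trended, robust moderation, 6 with slide as a block, 9 with only the compared arrays, 1 with spike-in scaling, 0 with the exocrine covariate, the arrays with Y-linked signal or the deposited matrix, and 0 to 3 with 1 array left out. From 300 to 500 cGy in B10.BR (0 reported) it was 2 with slide as a block. From 500 to 900 cGy in B10.BR (26 reported) it was 0 with spike-in scaling or only the compared arrays, 4 with the exocrine covariate and 7 to 22 with 1 array left out. The unirradiated strain count (42) was 17 with slide as a block, and that at 300 cGy (21 in both directions) was 3 with spike-in scaling. With 1 array left out these counts ran from 41 to 42 and from 17 to 23. With a replicate block, the counts ranged from 0 to 43 over the comparisons and none moved by over 1.5 times, with 28 for 500 to 900 cGy in B10.BR and 42 for the difference of changes. The cause of these shifts was not tested.

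Spike-in scaling moved the median of all features by over 0.1, to 0.26, 0.25 and 0.39 at the 3 B10.BR doses. Relative to that median, the members' medians were -1.17, -1.44 and -2.09 in B10.BR and -2.76, -3.17 and -3.29 in BALB.K; percentile, median and spike-in scaling each subtract 1 constant per array, so these values cannot differ between them. The share of rises among called features moved by over 10 points with spike-in scaling at 300 cGy in B10.BR (44.8% to 85%) and with median scaling at 300 cGy in BALB.K (44.3% to 61.9%). Arrays without Y-linked signal could not be fitted for 800 cGy, where all 3 arrays have it.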
